A study of Mus musculus with 9 samples.

Results

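The 9 genes described here, Prss34, Mcpt8, Cpa3, Tpsb2, Ms4a2, Fcer1a, Cd200r3, Hdc and Cyp11a1, were chosen by symbol as genes known from mast cells and basophils, and they are 9 of the 23471 genes in the RNA tables. Their RNA and the H3K4me3 peaks annotated to them were followed through 3 cell types of the mouse: the granulocyte-macrophage progenitor (GMP), the eosinophil progenitor (EoP) and the mature eosinophil (Eos). Balb/c mice, given no treatment and carrying no transgene that the labels name, were the source of all cells, and their bone marrow was pooled before sorting. GMP were sorted as Lin-, CD34+, c-kit hi and CD16/32+ cells, EoP as Lin-, CD34+, c-kit lo and CD125+ cells, and Eos as Siglec-F+, CCR3+ cells. Each cell type gave 2 RNA libraries from independent sorts and 1 H3K4me3 library. Neither the animals behind each sort nor their age or number are given, so p-values measure the spread between these libraries only.

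Mast cells and basophils are the cells that bind IgE through the high-affinity receptor FcεRI and release histamine and granule proteases when that receptor is cross-linked. The receptor consists of an IgE-binding alpha chain (Fcer1a), a signal-amplifying beta chain (Ms4a2) and a gamma chain shared with other Fc receptors (Fcer1g). In mice, the proteases encoded by Mcpt8 and Prss34 are used as basophil markers, Tpsb2 encodes a tryptase of connective tissue mast cells, and Cpa3 encodes the granule carboxypeptidase A3 of both lineages. Basophils, mast cells and eosinophils all arise from bone marrow progenitors that express GATA factors.

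The RNA libraries held 5226653 to 12088134 counts, with GMP the shallowest, and levels are given as CPM, counts scaled to library size with TMM factors, unless RPKM (reads per length and library size) is named. Il5ra, which encodes the CD125 of the EoP gate, had 436.5 and 399 CPM in EoP, against 2.18 and 1.79 CPM in GMP. The 11 eosinophil granule genes summed to 245200 and 195200 CPM in EoP, against 1217 and 293 CPM in GMP. In Eos they summed to 13590 and 11830 CPM. The 13 neutrophil genes, which the Eos gate should not enrich, summed to 2345 and 867 CPM in GMP, 650 and 290 CPM in EoP, and 42460 and 48550 CPM in Eos. Retnlg alone held 20590 and 35160 CPM of the Eos sums. EoP replicate 2 stood apart for the genes described here: it held several times more RNA of 6 of them than EoP replicate 1, so results in EoP are given with and without it. Together the 9 genes took 0.159% and 0.158% of all counts in GMP, 0.145% and 0.428% in EoP and 0.0236% and 0.0107% in Eos.

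Promoter sequences, from 250 bases before to 50 bases after the start, were taken from RefSeq on GRCm38.p6 and were found for 8 of the 9 genes. The 6 shown belong to the genes whose RNA was higher in the same EoP library. Capitals mark GATAA or GATAG preceded by A or by T, on either strand, the letters that GATA factors recognise, and each window is written along the strand of its gene.
Prss34 (chr17:25298144-25298443, plus strand): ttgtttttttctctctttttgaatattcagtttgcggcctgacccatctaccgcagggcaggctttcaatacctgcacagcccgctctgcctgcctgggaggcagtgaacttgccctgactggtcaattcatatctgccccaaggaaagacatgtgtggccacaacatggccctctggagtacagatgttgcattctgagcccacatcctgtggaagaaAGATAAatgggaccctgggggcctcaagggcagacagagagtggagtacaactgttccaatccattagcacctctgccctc
Mcpt8 (chr14:56085148-56085447, minus strand): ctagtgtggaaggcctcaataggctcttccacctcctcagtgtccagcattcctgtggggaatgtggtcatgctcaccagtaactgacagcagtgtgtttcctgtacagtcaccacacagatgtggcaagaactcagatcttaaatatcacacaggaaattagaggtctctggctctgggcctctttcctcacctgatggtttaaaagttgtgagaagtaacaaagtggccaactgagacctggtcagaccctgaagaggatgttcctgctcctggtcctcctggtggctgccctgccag
Cpa3 (chr3:20242132-20242431, minus strand): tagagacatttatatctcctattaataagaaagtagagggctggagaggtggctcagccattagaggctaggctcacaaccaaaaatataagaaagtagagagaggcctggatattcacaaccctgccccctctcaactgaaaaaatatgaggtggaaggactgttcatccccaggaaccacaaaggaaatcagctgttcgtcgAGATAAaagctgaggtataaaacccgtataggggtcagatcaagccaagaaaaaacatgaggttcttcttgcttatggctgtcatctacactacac
Ms4a2 (chr19:11623670-11623969, minus strand): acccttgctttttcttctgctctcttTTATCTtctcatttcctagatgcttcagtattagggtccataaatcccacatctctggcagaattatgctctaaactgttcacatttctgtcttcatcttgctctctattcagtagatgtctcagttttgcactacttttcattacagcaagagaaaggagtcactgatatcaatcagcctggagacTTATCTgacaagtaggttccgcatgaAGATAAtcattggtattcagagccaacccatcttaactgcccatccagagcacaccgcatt
Fcer1a (chr1:173227180-173227479, minus strand): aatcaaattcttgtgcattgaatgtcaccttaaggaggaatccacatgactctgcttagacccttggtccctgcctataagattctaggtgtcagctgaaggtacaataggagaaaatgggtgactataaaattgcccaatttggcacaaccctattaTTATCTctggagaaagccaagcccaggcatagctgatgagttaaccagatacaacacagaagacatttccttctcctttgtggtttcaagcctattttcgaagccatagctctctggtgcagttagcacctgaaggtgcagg
Cd200r3 (chr16:44943428-44943727, plus strand): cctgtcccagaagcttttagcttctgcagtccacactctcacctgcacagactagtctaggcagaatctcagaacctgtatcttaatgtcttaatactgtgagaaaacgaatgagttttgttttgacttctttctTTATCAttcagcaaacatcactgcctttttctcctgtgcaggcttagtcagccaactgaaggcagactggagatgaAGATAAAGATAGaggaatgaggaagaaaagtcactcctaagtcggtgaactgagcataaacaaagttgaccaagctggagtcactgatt
Of the 8 windows, 7 held at least 1 such match, against 29.8% of the 32851 mouse promoter windows of the same length, and the Mcpt8 window held none. Counted from the start, the Prss34 match lies at −31 to −26 and the Cpa3 match at −46 to −41. Ms4a2 and Cd200r3 each held 3 matches, and in Cd200r3 a pair of them stand side by side from −39 to −28. The TATAAA letters, searched on the gene's strand, were found in 2 of the 8 windows (Cpa3 and Fcer1a), against 8.32% of all windows, and none of these overlapped a GATA match. TTCNNNGAA, the letters bound by STAT factors, were found on either strand in 0 of the 8 windows, against 8.3% of all. A match describes the letters of the window only, and the number of genes is small.

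The basophil proteases had high RNA in GMP and EoP and little in Eos. Prss34 (chr17:25298394-25300161 on mm10, plus strand), a tryptase-like serine protease, had 497 and 437 CPM in GMP, 282 and 1782 CPM in EoP, and 21.5 and 11.7 CPM in Eos. Mcpt8 (chr14:56082164-56085197, minus strand), mast cell protease 8, had 220.2 and 196 CPM in GMP, 141 and 806 CPM in EoP, and 20.9 and 5.96 CPM in Eos. For both genes 1 EoP library lay below both GMP libraries and the other above them, while both Eos libraries lay below all the others. Per length, Prss34 was the highest of the 9 genes in GMP, at 131 ± 15.1 RPKM (SD, n = 2), and in EoP, at 367 ± 388 RPKM, and Mcpt8 came next in EoP, at 244 RPKM. In both genes the SD in EoP exceeded the mean, so their order there does not hold beyond the spread between libraries. In EoP replicate 1 Hdc was the highest, at 110.1 RPKM, with Prss34 at 92.9, Cpa3 at 88.8 and Mcpt8 at 67.3 RPKM.

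Neither protease passed the test between EoP and GMP. Prss34 differed by a log2 fold change of 1.14 (SE 0.64) and Mcpt8 by 1.19 (SE 0.68) in EoP against GMP (edgeR quasi-likelihood test with Benjamini-Hochberg adjustment over all genes tested, adjusted p = 0.219 and 0.233). Both signs rested on EoP replicate 2: without it, the log2 fold changes were −0.55 for Prss34 and −0.39 for Mcpt8 (edgeR, adjusted p = 0.346 and 0.643). Without EoP replicate 1 they were 1.96 and 1.98 and passed (edgeR, adjusted p = 0.0128 and 0.0363).

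Cpa3 (chr3:20215616-20242181, minus strand) had 207 and 256 CPM in GMP, 322 and 740 CPM in EoP, and 27.7 and 10.9 CPM in Eos. Both EoP libraries lay above both GMP libraries, yet the difference of 1.20 (SE 0.45) missed the threshold (edgeR, adjusted p = 0.074). It was 0.65 without EoP replicate 2, and the call was gained without EoP replicate 1 (1.71, edgeR, adjusted p = 0.0386) and without either Eos library (1.23, edgeR, adjusted p = 0.00988 and 0.0108).

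Tpsb2 (chr17:25366333-25368092, plus strand) was barely detected. It had 9 and 7 counts in the GMP libraries and 0 counts in each EoP and Eos library, so it entered the test only through GMP. The GMP libraries, though the shallowest, had a count in more genes, 19677 and 20542, than the others. In EoP 14350 and 14970 genes had a count, and in Eos 15924 and 16489. A few counts in GMP alone are thus not particular to Tpsb2, and what they stand for was not tested. Against a floor of 3 counts over the group without counts, the level of Tpsb2 was at least 7.16-fold lower in EoP than in GMP. In Eos it was at least 6.58-fold lower than in GMP by the same floor. The test, which does not use that floor, called Tpsb2 lower in EoP and in Eos (edgeR, adjusted p = 0.0212 for EoP and 0.0123 for Eos). The folds from the floor leave out the counting error of the GMP counts, and a call in the other direction was not possible. Without either GMP library it fell below the count filter and was not tested. The EoP call was lost without either EoP library (edgeR, adjusted p = 0.116 and 0.143), and the Eos call without either Eos library (edgeR, adjusted p = 0.0531 and 0.0546). Any reads shared with the related tryptase gene Tpsab1, which had at most 2 counts in any library, may have been split between them.

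The other mast cell proteases were close to the detection limit as well. Cma1, a mast cell chymase, had 4 and 29 counts in GMP, 0 and 1 in EoP and 0 and 0 in Eos. Mcpt4, another chymase, had 3 and 11 counts in GMP, 0 and 0 in EoP and 0 and 2 in Eos. The neighbours of Mcpt8 that were well detected are enzymes shared with other cells: Ctsg, neutrophil cathepsin G, had 251 ± 96.7 CPM in EoP and 2526 ± 167 CPM in GMP (SD, n = 2; log2 fold change −3.33, SE 0.52). Both EoP libraries lay below both GMP libraries (edgeR, adjusted p = 0.00271). In the tryptase cluster around Prss34, the 9 genes other than Prss34 and Tpsb2 summed to 11.9 and 5.07 CPM in GMP, 1.42 and 6.43 CPM in EoP, and 2.41 and 0.351 CPM in Eos. Most of the EoP sum came from Prss28, with 7 and 64 counts there, chosen for mention after its values were seen.

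The IgE-binding and amplifying chains of FcεRI followed the proteases. Fcer1a (chr1:173221271-173227229, minus strand) had 56.9 and 48.4 CPM in GMP, 59.1 and 175 CPM in EoP, and 10.5 and 3.39 CPM in Eos. Ms4a2 (chr19:11615521-11623719, minus strand) had 85.5 and 74.8 CPM in GMP, 119 and 321 CPM in EoP, and 19.0 and 3.51 CPM in Eos. In EoP replicate 1, Fcer1a stood just above the GMP libraries, and neither gene passed between EoP and GMP (log2 fold change 1.15, SE 0.51, and 1.46, SE 0.60; edgeR, adjusted p = 0.126 and 0.103). Without EoP replicate 2 the values were 0.34 for Fcer1a and 0.74 for Ms4a2. Fcer1a passed without EoP replicate 1 and without either Eos library, and Ms4a2 without either Eos library (edgeR, adjusted p from 0.00685 to 0.0395).

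The third chain took another course. Fcer1g had 287 and 209 CPM in GMP, 461 and 458 CPM in EoP, and 581.5 and 743 CPM in Eos, so it was highest in the cells with the least Fcer1a and Ms4a2. It was higher in Eos than in GMP by 1.42 (SE 0.26, edgeR, adjusted p = 0.00175), but was not called in Eos against EoP. Lyn and Syk, the kinases that act first below FcεRI, were called higher in Eos than in EoP, by 2.09 (SE 0.28) and 1.65 (SE 0.30), with both Eos libraries above both EoP libraries (edgeR, adjusted p = 0.000556 and 0.00248). The list of FcεRI signalling genes holds 20 other than Fcer1a and Ms4a2, among them Ms4a1, Ms4a3 and Ms4a6c, included as relatives of Ms4a2. Of these 20, 5 were called higher in EoP against GMP and 2 lower, and in Eos against EoP 9 were higher and 2 lower. These numbers take in Ms4a6c (higher) and Ms4a3 (lower) in EoP against GMP, and Ms4a1 (higher) and Ms4a6c (lower) in Eos against EoP. Across all genes tested 9.49% were called higher and 17.1% lower in EoP, and 19.1% higher and 17.7% lower in Eos. The median log2 fold changes of the 20 genes were 0.50 and 0.63, beside −0.07 and 0.02 over all genes tested. With each library left out, the number higher ran from 1 to 8 in EoP against GMP and from 8 to 10 in Eos against EoP.

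Cd200r3 (chr16:44943678-44981380, plus strand), an activating receptor-like protein of basophils and mast cells, was low throughout. It had 4.60 and 5.07 CPM in GMP, 6.25 and 37.6 CPM in EoP, and 3.41 and 6.55 CPM in Eos. Only EoP replicate 2 stood clear of the rest, and the Eos libraries overlapped those of both other cell types. It was called higher in EoP than in GMP (log2 fold change 2.19, SE 0.71; edgeR, adjusted p = 0.0455), but the value was 0.55 without EoP replicate 2 (edgeR, adjusted p = 0.567), and the call was also lost without GMP replicate 1 or GMP replicate 2 (edgeR, adjusted p = 0.231 and 0.156). Cd200r1, the inhibitory receptor of the same family, was higher in EoP than in GMP by 1.37 (SE 0.25; edgeR, adjusted p = 0.00484), a call lost without GMP replicate 1 (edgeR, adjusted p = 0.0597), and higher in Eos than in EoP by 1.87 (SE 0.24; edgeR, adjusted p = 0.000401).

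Hdc and Cyp11a1 rose in EoP in both libraries. Hdc (chr2:126593668-126618665, minus strand), the enzyme that makes histamine from histidine, had 181 and 194 CPM in GMP, 653 and 520 CPM in EoP, and 156 and 92.5 CPM in Eos. Cyp11a1 (chr9:58015017-58027023, plus strand), the mitochondrial enzyme that starts steroid synthesis from cholesterol, had 16.5 and 21.5 CPM in GMP, 68.7 and 52.2 CPM in EoP, and 0.603 and 1.05 CPM in Eos. In both genes EoP replicate 1 was the higher EoP library, the reverse of the other 6 genes detected there, and the EoP and GMP libraries did not overlap.

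The rise in EoP over GMP was 3.13-fold for Hdc (log2 fold change 1.65, SE 0.28) and 3.19-fold for Cyp11a1 (1.67, SE 0.29), and in both genes the lower EoP library exceeded the higher GMP library (edgeR, adjusted p = 0.00399 and 0.00393). Without EoP replicate 2 both were larger, at 1.98 and 2.04, and without EoP replicate 1 they were 1.5 and 1.49 and still passed. Both calls were lost without GMP replicate 1 (1.60 and 1.5; edgeR, adjusted p = 0.0623 and 0.0602).

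The pathway partners of these enzymes moved less uniformly. Slc18a2, the transporter that loads histamine into granules, had 44.4 and 39.0 CPM in GMP, 52.8 and 64.3 CPM in EoP, and 35.5 and 60.7 CPM in Eos, and passed in no comparison (edgeR, adjusted p from 0.23 to 0.55). Of the 5 histamine genes tested beside Hdc, 0 were called in EoP against GMP, and 1, the receptor gene Hrh2, in Eos against EoP, where 36.8% of all genes tested were called. The Hrh2 call (1.32; edgeR, adjusted p = 0.0271) was lost without either EoP library and without Eos replicate 1, with an adjusted p of up to 0.11 in edgeR. Fdx1, the electron carrier that serves Cyp11a1 in mitochondria, had 14.6 and 16.4 CPM in GMP, 43.4 and 30.9 CPM in EoP, and 7.83 and 3.86 CPM in Eos. It was higher in EoP than in GMP by 1.26 (SE 0.35; edgeR, adjusted p = 0.0252) and lower in Eos than in EoP by 2.66 on the log2 scale (log2 fold change −2.66, SE 0.37; edgeR, adjusted p = 0.000716). The first of these calls was lost without either GMP library and without EoP replicate 1, with an adjusted p of up to 0.177 in edgeR. Of the 7 steroid synthesis genes tested beside Cyp11a1, 2 were called higher and 1 lower in EoP against GMP, with the same numbers in Eos against EoP. With each library left out, 0 to 2 were higher and 0 to 4 lower in EoP against GMP. These shares are to be read beside the 9.49% higher and 17.1% lower among all genes tested in EoP against GMP.

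**Figure D1:**
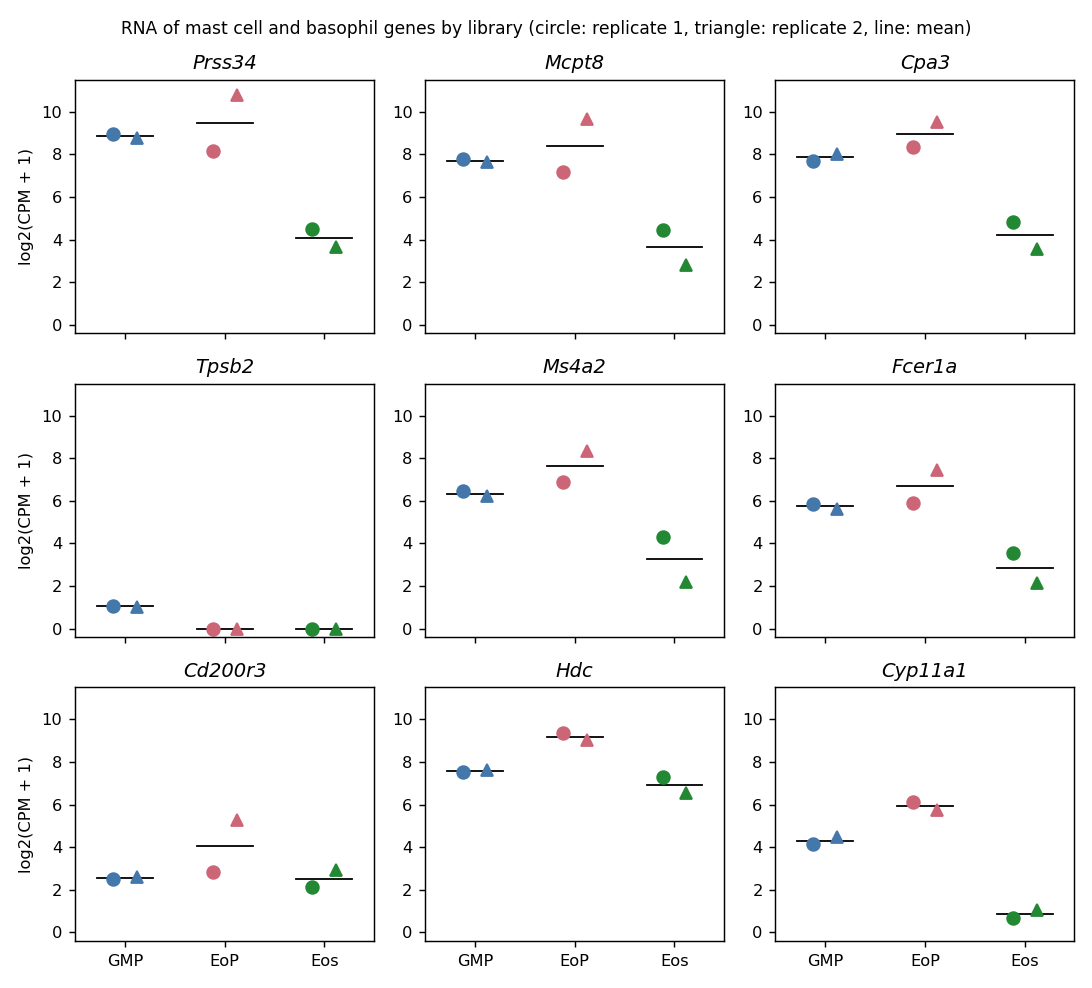
RNA level of each gene as log2(CPM + 1) in the GMP, EoP and Eos libraries; circles are replicate 1, triangles replicate 2 and lines the mean of both. EoP replicate 2 is above EoP replicate 1 for Prss34, Mcpt8, Cpa3, Ms4a2, Fcer1a and Cd200r3 and below it for Hdc and Cyp11a1, and Tpsb2 is at 0 in every EoP and Eos library.

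Taking the 9 genes as a group, 3 (Hdc, Cyp11a1 and Cd200r3) were called higher in EoP and 1 (Tpsb2, tested only through its GMP counts) lower, where 9.49% of all 14324 genes tested were called higher and 17.1% lower, 26.6% in all. Of all called genes 35.7% were higher, against 25.2% with upper quartile factors and 14.3% with library size alone, scalings that moved the median of all genes by −0.18 and −0.46. The median log2 fold change of the 9 genes was 1.20, against −0.07 over all genes tested. In 6 of the 9 genes both EoP libraries lay above both GMP libraries, as they did in 31.0% of all genes tested. The number called, 4 in either direction, ran from 0 to 7 with each library left out, and was 0 without GMP replicate 1, 2 without GMP replicate 2 or EoP replicate 2, and 7 without EoP replicate 1 or either Eos library.

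In Eos against EoP the direction was uniform: 8 of the 9 genes were lower in Eos, against 17.7% of all genes tested (36.8% were called in either direction), and Tpsb2 had no count in either group. In 7 of the 9 both Eos libraries lay below both EoP libraries, as they did in 35.5% of all genes tested. Cyp11a1 fell most, 72.9-fold (log2 fold change −6.19, SE 0.39; edgeR, adjusted p = 1.22e-05), to 0.827 ± 0.318 CPM in Eos, against 60.5 ± 11.7 CPM in EoP (SD, n = 2). Prss34 fell 62.0-fold (−5.95, SE 0.79; edgeR, adjusted p = 0.000509) and Mcpt8 35.0-fold (−5.13, SE 0.81; edgeR, adjusted p = 0.00128). Cpa3 fell 27.4-fold, Ms4a2 19.4-fold and Fcer1a 16.6-fold (log2 fold change −4.78, −4.28 and −4.05; edgeR, adjusted p = 0.00018, 0.00137 and 0.000811). Hdc, the least reduced of those whose libraries did not overlap, was 4.72-fold lower in Eos (−2.24, SE 0.29; edgeR, adjusted p = 0.000437).

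These falls did not need EoP replicate 2. Without it, the log2 fold changes in Eos against EoP were −4.06 for Prss34, −3.35 for Mcpt8, −4.03 for Cpa3, −3.36 for Ms4a2, −3.04 for Fcer1a, −2.37 for Hdc and −6.35 for Cyp11a1, and all 7 passed (edgeR, adjusted p from 4.43e-05 to 0.00419). Cd200r3 was called lower by 2.15 on the log2 scale (log2 fold change −2.15, SE 0.70; edgeR, adjusted p = 0.0362), but its libraries overlapped, its value was −0.31 without EoP replicate 2 (edgeR, adjusted p = 0.752), and the call was also lost without either GMP library or Eos replicate 1 (edgeR, adjusted p from 0.0573 to 0.0874).

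Set against GMP, 7 of the 9 genes were called lower in Eos, Tpsb2 among them although it entered the test only through GMP, where 31.8% of all genes tested were lower and 54.5% were called in either direction. In 8 of the 9 both Eos libraries lay below both GMP libraries, as they did in 49.7% of all. Of all called genes 41.7% were higher, against 23% with library size alone, which moved the median of all genes by −0.58. Prss34 was 28.1-fold, Cyp11a1 22.8-fold, Mcpt8 15.4-fold and Cpa3 11.9-fold lower in Eos than in GMP (log2 fold change −4.81, −4.51, −3.94 and −3.58; edgeR, adjusted p = 0.000764, 1.97e-05, 0.00266 and 0.00038). Fcer1a was lower by 2.90 and Ms4a2 by 2.82 on the log2 scale (log2 fold change −2.90 and −2.82; edgeR, adjusted p = 0.00262 and 0.00585). Ms4a2 had a log2 fold change of −2.05 without Eos replicate 2 and −4.5 without Eos replicate 1, and Fcer1a −2.29 and −3.94, all still passing (edgeR, adjusted p = 0.00542, 3.89e-05, 0.00518 and 0.000167). Cd200r3 differed by 0.04 and Hdc by −0.59, and neither passed (edgeR, adjusted p = 0.967 and 0.0916). The Hdc value was −1.0 and passed without Eos replicate 1 (edgeR, adjusted p = 0.00356). The comparisons share libraries, so they are not separate evidence of a direction. In bulk RNA, fewer cells of a type and less RNA per cell cannot be told apart.

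**Figure D2:**
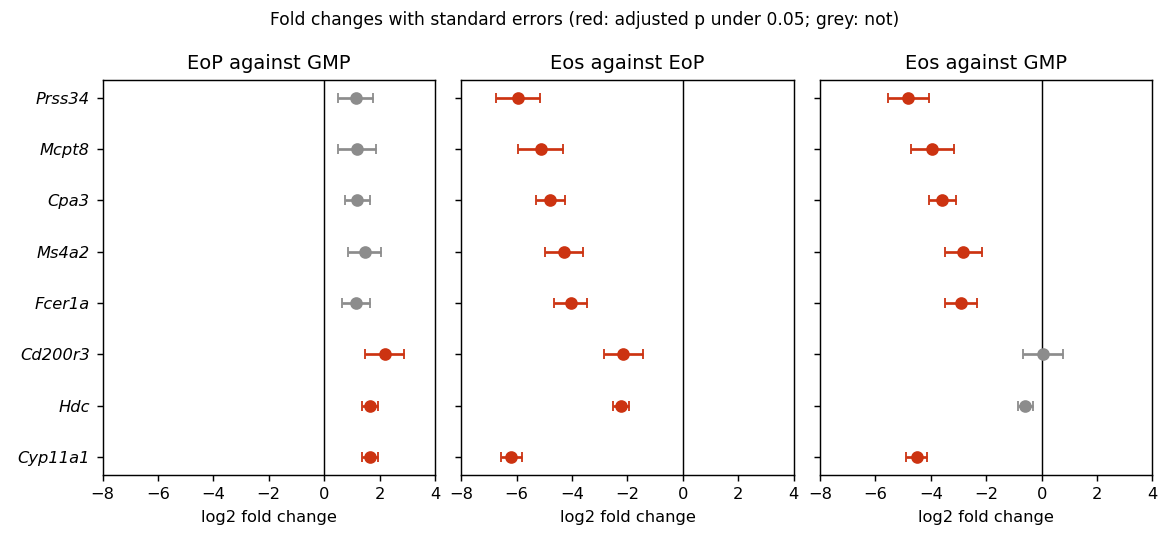
Log2 fold change of 8 genes in each comparison, positive where the cell type named first is higher; points are edgeR estimates, bars their standard errors, and red marks an adjusted p under 0.05. In Eos against EoP all 8 are red and left of 0, while in EoP against GMP only Cd200r3, Hdc and Cyp11a1 are red. Tpsb2 is not drawn because its fold rests on a floor.

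The Eos libraries were also unequal for these genes. Eos replicate 1 held more RNA than Eos replicate 2 of Ms4a2 (5.41 times), Mcpt8 (3.50 times), Fcer1a (3.11 times), Cpa3 (2.55 times) and Prss34 (1.84 times), while Cd200r3 was at 0.521 times. Kit, the stem cell factor receptor, and Gata2 moved the same way, at 111.5 and 39.1 CPM for Kit and 19.3 and 7.83 CPM for Gata2 in the Eos libraries, both chosen after their values were seen. Other genes of the lists did not: Il1rl1, the IL-33 receptor, had 110.6 and 337 CPM, Slc18a2 35.5 and 60.7 CPM and Itgb7 263 and 383 CPM in the same libraries. The 13 basophil genes outside the 9 summed to 1020 and 1522 CPM and the 23 such mast cell genes to 2894 and 2507 CPM. Srgn held 1480 and 1579 CPM of the mast cell sum. Eos replicate 1 also held more RNA of the 8 B cell genes (141 and 61.3 CPM in all) and of the neutrophil granule genes Elane (2167 and 587 CPM) and Prtn3 (899 and 240 CPM), and 271 of 6181 genes of at least 20 CPM in Eos were at 2 times or more there. The part of these genes in the difference was not tested. In GMP the replicates lay close, with ratios of replicate 1 to replicate 2 from 0.767 to 1.18 over the 9 genes.

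Above a minimum level, genes described here led those that were higher in EoP replicate 2 than in EoP replicate 1. Among the 6507 genes with a mean of at least 20 CPM in EoP, the ratio of EoP replicate 2 to EoP replicate 1 had a median of 0.991, 4 genes reached 3, and 61 genes lay at or below the reciprocal of 3. Prss34 had the highest ratio of these 6507 genes (6.33), followed by Cd200r3 (6.02) and Mcpt8 (5.73). Cd200r3 reached the minimum of 20 CPM only through EoP replicate 2, so its place follows in part from that minimum, as does that of Cebpa below. Some genes under that minimum had larger ratios. Igll1 had 0.118 and 15.3 CPM in EoP replicates 1 and 2, Ppbp 0.354 and 8.57 CPM, and Il7r 1.30 and 10.7 CPM. Cpa6, also under the minimum, went the other way, at 33.3 and 2.57 CPM. Gata2, a factor needed for basophil and mast cell development, ranked 4, at 46.4 CPM in EoP replicate 1 and 147 CPM in EoP replicate 2 (3.16), and Fcer1a 5 (2.96). Ms4a2 ranked 8 (2.71), Cebpa, another regulator of the basophil branch, 9 (2.68) and Cpa3 17 (2.30), among 24 genes at 2 or more. The 13 basophil genes outside the 9 summed to 1297 CPM in EoP replicate 1 and 1174 CPM in EoP replicate 2, and the 23 such mast cell genes to 1790 and 1666 CPM. The largest part of each sum came from 1 gene, Cd63 (886.5 and 671.9 CPM) and Srgn (1063 and 775.5 CPM). The sums thus do not show how the other genes of these lists moved. The basophil list moved in both directions. Il4, a cytokine of basophils and also of eosinophils, had 23.2 and 12.9 CPM in EoP replicates 1 and 2, and Csf1 had 204.8 and 175.8 CPM. Il6, Il3ra and Il1rl1 did not rise either, and Il13 and Gpr44 had at most 1 count. Higher in EoP replicate 2 were Itgb7 (4.25 and 12 CPM), Il18rap (30.3 and 52.5 CPM), Ccr2 (11.7 and 17.4 CPM) and Itga2 (0.472 and 3.6 CPM). Xist, expressed in female cells, ranked 13 (1505 and 3796 CPM), while the Y-linked Ddx3y had 46.1 and 30.5 CPM and Eif2s3y 44.9 and 32.1 CPM. The part of these genes was not tested either. Hdc (0.796) and Cyp11a1 (0.759) lay on the other side of the median, beside the eosinophil genes Prg2 (0.777), Epx (0.861) and Il5ra (0.915). These ratios describe a single pair of libraries and have no test.

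Other gene lists also differed between the EoP libraries. The 19 immediate early and heat shock genes summed to 6580 CPM in EoP replicate 1 and 231 CPM in EoP replicate 2, with 0 and 3 of them without a count. The 13 neutrophil genes summed to 650 and 290 CPM, the 9 monocyte and macrophage genes to 368 and 352 CPM, the 11 T and NK cell genes to 350 and 357 CPM (4 of 11 without a count in each), and the 8 B cell genes to 19.7 and 45.5 CPM, with 3 and 0 of them without a count. Most of the monocyte and macrophage sum came from Emr1 (270.5 and 234.9 CPM), and nearly all of the T and NK cell sum from Nkg7 (340.8 and 334.9 CPM). These 2 sums thus do not show how the other genes of their lists moved. F13a1 (18.9 and 35.9 CPM), Csf1r (4.72 and 14.1 CPM) and Thy1 (3.54 and 16.03 CPM) were higher in EoP replicate 2. Lyz2 (43.2 and 29.1 CPM) and Cd3d (4.13 and 0.857 CPM) were lower there. Of the B cell sums, Cd79b held 17.7 and 16.3 CPM and Igll1 0.118 and 15.3 CPM. The 9 megakaryocyte genes summed to 120.6 and 172.7 CPM, with Pf4 at 7.55 and 24.3 CPM and Gp9 at 2.71 and 1.80 CPM. The 11 erythroid genes summed to 24.9 and 20.1 CPM. Kit was at 1.18 times in EoP replicate 2. The part of these lists in the difference was not tested.

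**Figure D3:**
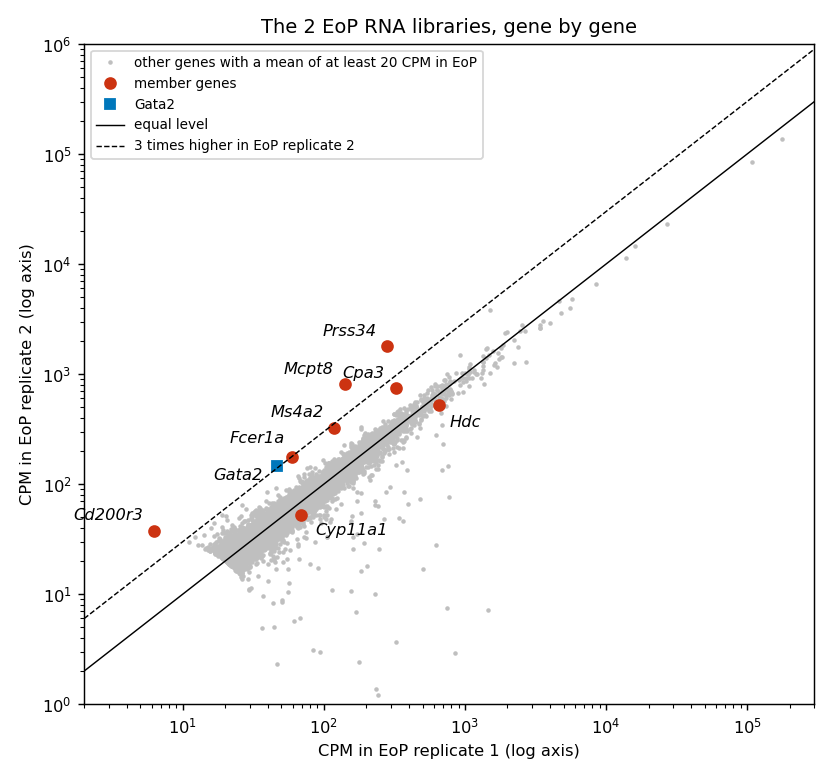
CPM in EoP replicate 2 (vertical, log axis) against EoP replicate 1 (horizontal, log axis) for genes with a mean of at least 20 CPM in EoP; red points are the genes described here and the blue square is Gata2. Prss34, Mcpt8 and Cd200r3 lie farthest above the line of equal level and Hdc and Cyp11a1 below it.

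Within the GMP and EoP libraries, the basophil proteases kept similar proportions. Counts of Mcpt8 per count of Prss34 were 0.443 and 0.448 in GMP and 0.50 and 0.452 in EoP, although their levels differed 5.73-fold and 6.33-fold between the EoP libraries. The 95% exact binomial intervals, which cover counting error only, were 0.419 to 0.468 and 0.42 to 0.479 in GMP, and 0.466 to 0.536 and 0.442 to 0.464 in EoP. In Eos the ratio was 0.972 (0.799 to 1.18) and 0.510 (0.357 to 0.722). Other ratios differed between the EoP libraries: Ms4a2 per Prss34 was 0.180 there and 0.421 in EoP replicate 1, against 0.172 and 0.171 in GMP, and Fcer1a per Prss34 was 0.0981 in EoP replicate 2 and 0.210 in EoP replicate 1, against 0.114 and 0.111 in GMP. Cd200r3 per Prss34 was alike in the EoP libraries, at 0.0222 and 0.0211, against 0.00925 and 0.0116 in GMP.

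The enzymes kept no such proportion. Hdc per Prss34 was 0.364 and 0.444 in GMP, 2.32 and 0.292 in EoP, and 7.24 and 7.91 in Eos. Cyp11a1 per Prss34 was 0.0331 and 0.0491 in GMP, 0.244 and 0.0293 in EoP, and 0.028 and 0.09 in Eos, the last from 6 and 9 counts of Cyp11a1. Relative to Prss34, Hdc was thus highest in the Eos libraries, while the Cyp11a1 ratios of Eos overlapped those of GMP and EoP. The counts are not scaled for length, so these ratios compare libraries and not the levels of 2 genes.

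**Figure D4:**
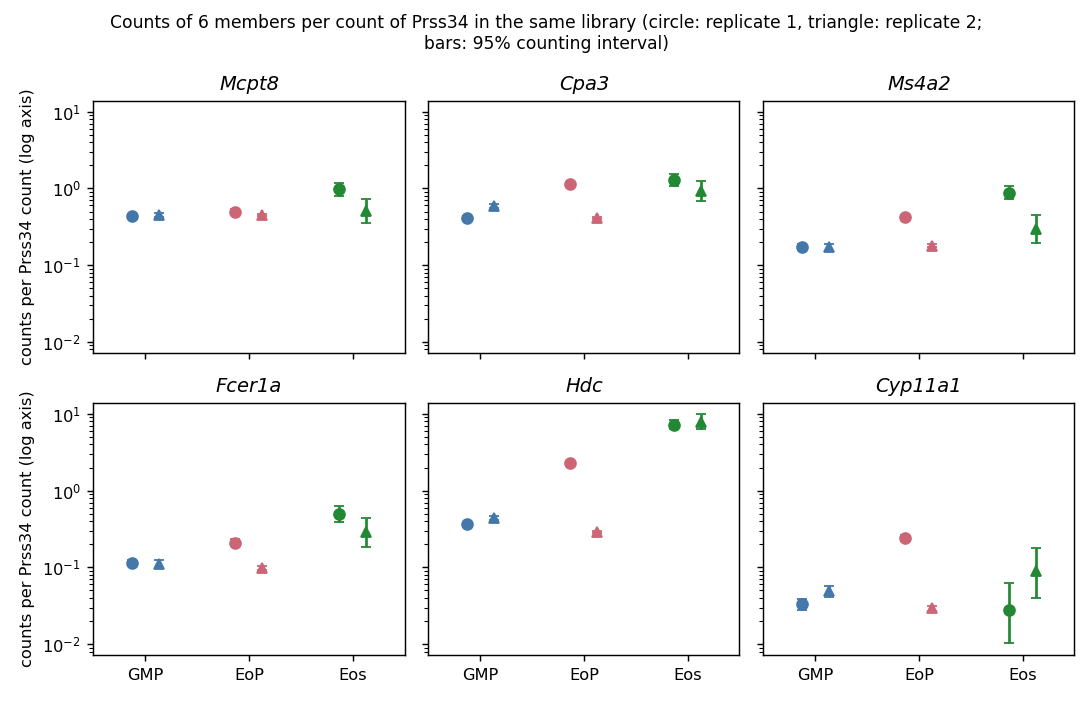
Counts of 6 genes per count of Prss34 in the same library, on a log axis, in GMP, EoP and Eos; circles are replicate 1, triangles replicate 2 and bars 95% counting intervals. Mcpt8 lies between 0.443 and 0.50 in the GMP and EoP libraries, while Hdc is at 2.32 and 0.292 in the EoP libraries and at 7.24 and 7.91 in the Eos libraries.

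Regulators of these lineages differed in their course. Gata2 had 78.4 and 113 CPM in GMP, 46.4 and 147 CPM in EoP, and 19.3 and 7.83 CPM in Eos, and it was lower in Eos than in EoP by 2.83 on the log2 scale (log2 fold change −2.83, SE 0.55; edgeR, adjusted p = 0.00362). With each library left out this value ran from −3.64 to −1.74 and still passed (edgeR, adjusted p of at most 0.02). Gata1, used by eosinophils, mast cells and basophils, was 13.6-fold higher in EoP than in GMP (log2 fold change 3.76, SE 0.29; edgeR, adjusted p = 5.72e-05) and did not pass in Eos against EoP (0.25; edgeR, adjusted p = 0.427). Of 19 regulators tested, EoP against GMP had 6 higher and 3 lower, and Eos against EoP had 8 higher and 4 lower, with median log2 fold changes of 0.04 and 0.56. Over all genes tested 9.49% were higher and 17.1% lower in EoP, and 19.1% higher and 17.7% lower in Eos. With each library left out, the regulators ran from 4 to 6 higher and 1 to 5 lower in EoP against GMP, and from 4 to 9 higher and 3 to 4 lower in Eos against EoP. Il4, a cytokine of basophils and also of eosinophils, had 1.26 ± 0.0987 CPM in GMP, 18.1 ± 7.28 CPM in EoP and 80.1 ± 18.6 CPM in Eos (SD, n = 2 each). It was higher in EoP than in GMP by 3.81 (SE 0.41) and higher in Eos than in EoP by 2.15 (SE 0.32), with no overlap of libraries (edgeR, adjusted p = 0.000313 and 0.00088). Of the 13 basophil genes tested that are not among the 9, EoP against GMP had 5 higher and 1 lower (median 0.26), and Eos against EoP had 8 higher and 2 lower (median 1.55), with 5 to 7 higher when a library was left out. Of the 10 mast cell genes so tested, EoP against GMP had 2 higher and 3 lower (median −0.73), and Eos against EoP had 4 higher and 1 lower (median 0.98). With each library left out these numbers ran from 1 to 3 higher and 2 to 6 lower in EoP against GMP, and from 0 to 3 higher and 0 to 3 lower in Eos against EoP.

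The genes whose course was most like that of the 9 depended on the measure of likeness. By the Pearson correlation of log2(CPM + 1) over the 6 RNA libraries, a description that ignores size, Osbpl3 and Mcpt8 were among the closest to Prss34, and the closest to Hdc was Gna12. By the distance between centred log2(CPM + 1) values, a measure added after the data were seen, the nearest of 7335 genes outside the 9 was Cdh1, for E-cadherin, in 6 cases: Prss34, Mcpt8, Cpa3, Ms4a2, Fcer1a and Cyp11a1. Cdh1 had 34.6 and 39.6 CPM in GMP, 65.9 and 118 CPM in EoP, and 3.71 and 2.69 CPM in Eos. It lay 0.85 log2 units from Cpa3 and 2.11 from Prss34, and the nearest to Hdc was Pde6d, at 0.37.

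H3K4me3, a histone mark found around the start sites of active genes, was listed at more of these genes in GMP than in the later cells. A peak that the authors' lists annotate to the promoter, which there means within 1000 bases of the start, was present at 6 of the 9 genes in GMP (Prss34, Mcpt8, Cpa3, Ms4a2, Hdc and Cyp11a1). In EoP it was present at 2 (Ms4a2 and Hdc) and in Eos at 1 (Hdc). Over all 23471 genes, 45.1% had a promoter peak in GMP, 37.4% in EoP and 39.6% in Eos. Each cell type had 1 H3K4me3 library, so these differences have no replicate check.

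In EoP the peaks did not go with the RNA. Of the 7 genes with a mean of at least 10 RPKM in EoP, a minimum chosen after the data were seen, 2 had a promoter peak, whereas 78.5% of the 2888 genes at that level did. By the RPKM of EoP replicate 1 alone, it was again 2 of 7, against 77.8% of 2790 genes. At 100 RPKM or more in EoP, 1 of 4 of these genes (Hdc, but not Prss34, Mcpt8 or Cpa3) had one, against 78.3% of 143 genes, but this rested on EoP replicate 2: in EoP replicate 1 only Hdc reached 100 RPKM, so that it was 1 of 1. In GMP 5 of the 6 genes at 10 RPKM or more had a promoter peak, against 79.4% of 1940 genes, the exception being Fcer1a at 17.5 ± 2.42 RPKM (SD, n = 2). The EoP list was the shortest, with 19816 peaks, against 30645 in GMP, and which EoP sort gave the chromatin is not stated.

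Even where listed, most peaks lay below the middle of their lists. Prss34 in GMP had promoter peaks at chr17:25298695-25298802 and chr17:25299113-25299634, with summits 375 and 1126 bases inside the gene and the authors' fold enrichments of 4.07 and 4.80, against a median of 6.08 in that list. Mcpt8 in GMP had its strongest summit 580 bases inside the gene, with a fold enrichment of 5.83 and a −log10 q of 5.69, at percentile 46.9 of the list by fold and 30.7 by q. Hdc in EoP had the strongest peak of all 9 genes (chr2:126618322-126618601), with a fold enrichment of 6.55, above the EoP median of 6.01, and a −log10 q of 7.64, below the EoP median of 8.23. None of the peaks at these genes reached that median of 8.23 as a threshold, in any of the 3 lists.

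Only Hdc had a promoter peak in all 3 cell types. Its Eos peaks were weak, with a fold enrichment of 3.65 and a −log10 q of 1.83, at percentile 23.3 of the list by q. The EoP peak lay wholly within the GMP peak at chr2:126618248-126618643 (280 bases shared), and the Eos peak at chr2:126618519-126618654 shared 83 bases with the EoP peak and 125 with the GMP peak. At Ms4a2 the EoP peak (chr19:11623474-11623669) shared 159 bases with the nearest of 3 GMP promoter peaks. Fcer1a and Cd200r3 had 1 peak each in GMP, both in an intron, and no peak in EoP or Eos, and Tpsb2 had none in any list. Cpa3 had 3 peaks in Eos, the nearest with its summit 18731 bases from the start and none of the promoter class.

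**Figure D5:**
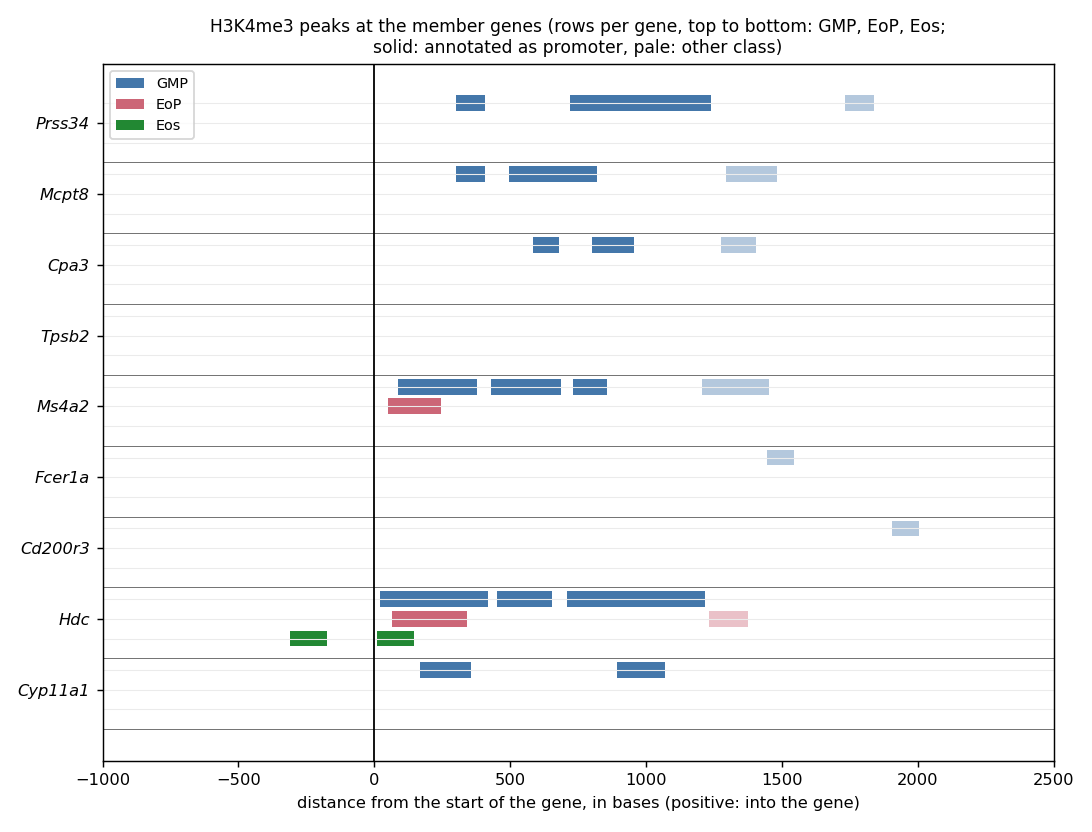
H3K4me3 peaks annotated to each gene by distance from the gene's start in bases (positive into the gene), with a row each for GMP (blue), EoP (red) and Eos (green); solid bars are of the promoter class and pale bars of another class. Blue bars lie at 8 genes, red bars at Ms4a2 and Hdc, and green bars at Hdc alone; peaks outside the window shown (1 near Cyp11a1 in GMP and 3 near Cpa3 in Eos) are not drawn.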

How the data were processed

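RNA was measured in 6 libraries and H3K4me3 in 3. Per the file headers, the authors' RNA tables give a count and an RPKM value per RefSeq transcript on 31213 lines. The deposited counts are whole numbers and were read as estimated counts, because transcripts of a gene hold different counts over shared exons. They were summed over the lines of each gene symbol, and the authors' RPKM likewise. The deposited peak tables give, per the file headers, each summit's pileup signal, fold enrichment, −log10 p and q, and the length in bases. Per the submitters' processing notes, STAR 2.4.0c, Bowtie 1.0.0 and mm10 were used, with no role stated. The names of the counting tool, the peak caller and any control, and the strand setting, were not given in sources used here. The peak libraries have an unknown depth.

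Counts were tested with edgeR 4.0.16 (quasi-likelihood, TMM factors, default filter, 14324 genes) in 1 fit of the 6 libraries, checked on simulated data. Calls were made at an adjusted p (Benjamini-Hochberg) under 0.05. Folds against a group at 0 use a floor of 3 counts. DESeq2 1.42.0, limma 3.58.1 and other scalings were alternatives. The rule named the 9 genes and, per list and comparison, up to 3 called genes of at least 5 CPM without overlap. Other genes named (Il5ra in EoP, Fcer1g, Lyn, Syk, Slc18a2, Cma1, Mcpt4, Cebpa, Prg2, Epx, Prss28, Il1rl1, Itgb7, Elane, Prtn3, Xist, Ddx3y and Eif2s3y) were chosen for their role or after their values were seen. Cd63, Srgn, Il18rap, Emr1, Nkg7, Csf1r, Lyz2, Thy1 and Cd3d were also named after their values were seen. So were Csf1, Ccr2, Itga2, Il6, Il3ra, Il13, Gpr44, F13a1, Retnlg, Igll1, Ppbp, Il7r, Cpa6, Cd79b, Pf4 and Gp9. The 9 genes, the 19 gene lists and the rules were chosen with earlier results of these data known. Same-numbered libraries were not stated to be paired.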

Additional observations from a re-analysis of the deposited data

How the results depend on the processing

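With each library left out in turn, the number of the 9 genes called ran from 0 to 7 in EoP against GMP (4 with all libraries), from 7 to 8 in Eos against EoP (8) and from 6 to 7 in Eos against GMP (7). Over all genes tested the numbers ran from 735 to 5898 (3812 with all libraries), from 3019 to 6397 (5273) and from 4292 to 8011 (7810). In EoP against GMP, 9 of the 9 were called with no filter on low counts (4964 or 22.7% of 21864 genes), 2 with at least 50 counts in 2 libraries, and 2 with limma on log2(RPKM + 0.5) or log2(RPKM + 0.1). All genes called there were 1539 with at least 50 counts and 2141 with log2(RPKM + 0.1). With the replicate number as a block, 3, 8 and 6 of the 9 genes were called in the 3 comparisons, and 2687, 4963 and 6945 of all genes. Same-numbered libraries did not deviate together (correlations of −0.0995, 0.0194 and −0.0849), so the numbers are not taken as pairs.

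The sign turned for Prss34 (−0.55) and Mcpt8 (−0.39) in EoP against GMP without EoP replicate 2, in ranges of −0.55 to 1.96 and −0.39 to 1.98 with each library left out. For Cd200r3 in Eos against GMP (0.04) it turned with upper quartile factors (−0.19), library size alone (−0.57), at least 50 counts (−0.01), the replicate block (−0.1), the highest transcript line (−0.01), limma-voom (−0.05), log2(RPKM + 0.5) (−0.19) and log2(RPKM + 0.1) (−0.25), and without GMP replicate 1 (−0.03) or Eos replicate 2 (−0.47), in a range up to 0.45. The Cd200r3 call in EoP against GMP was also lost with upper quartile factors, library size alone, at least 50 counts, the highest transcript line, limma-voom and both RPKM settings (adjusted p from 0.0692 to 0.17). Hdc in Eos against GMP passed with upper quartile factors (−0.82) and library size alone (−1.15). DESeq2 gave no adjusted p for Tpsb2, and the replicate block lost its calls (adjusted p = 0.0975 and 0.0612). Causes were not tested. At a −log10 q of at least 8.23, 0 of the 9 genes had a promoter peak or any peak in each list. With the top 19816 peaks of each list, 5 had any peak in GMP and 0 had a promoter peak or any peak in Eos. In Eos 1 had a peak within 1000 or 3000 bases of the start. Depth limits Tpsb2 and the Eos values of Cyp11a1 and Cd200r3, which rest on 6 to 56 counts a library where any were found.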

Other observations

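The division of counts between transcripts of a gene differed between replicates even in GMP, where the sums over transcripts lay close. Cd200r3 is listed with 4 transcripts. In GMP replicate 1, 32 of its 38 counts were given to 1 of the 2 longer transcripts, and in GMP replicate 2 all 34 went to the other. In EoP replicate 2 the first of these held 384 of 439 counts. Ms4a2 is also listed with 4 transcripts, of which 1 had 0 counts in every library; another had 223 counts in GMP replicate 1, 0 in GMP replicate 2, 0 in EoP replicate 1 and 1287 in EoP replicate 2. Levels and tests of both genes used the sums.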
